A study of Arabidopsis thaliana with 12 samples.

Results

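The trehalose phosphate synthase (TPS) genes expressed in Arabidopsis thaliana leaves were examined across wild-type plants and plants that carry the Medicago truncatula gene MtPHD6, each with and without water. The 8 genes were TPS1 (AT1G78580), TPS5 (AT4G17770), TPS6 (AT1G68020), TPS7 (AT1G06410), TPS8 (AT1G70290), TPS9 (AT1G23870), TPS10 (AT1G60140) and TPS11 (AT2G18700). They were chosen by name from the 36061 named genes of the count table, with earlier results of the same comparisons known, so their levels and fold changes in these groups are given as a description and no p-value is printed for them. All 8 passed the filter on low counts, which left 19681 genes.

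RNA of rosette leaves was sequenced in 12 libraries, with 3 libraries in each of 4 groups. WT-control and WT-drought are wild-type plants grown with water and with water withheld. MtPHD6-control and MtPHD6-drought are homozygous transgenic plants that carry the coding sequence of MtPHD6, an Alfin1-like protein with a PHD finger, in a pCAMBIA1301S vector, grown in the same 2 ways. The study describes transgenic lines in the plural. The labels do not say which line a library came from or whether lines were mixed within a group. The replicates are described as biological in the methods, with leaves taken from 3 containers of many plants, but no source used here says which plants or containers gave which library. The records give 10 days of treatment for all libraries, controls included, whereas the methods describe a different time of sampling, and the promoter that drives the transgene is not stated in the sources used here. Reads of the transgene itself were not analysed, and so the genotype labels were not checked from it.

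In plants, trehalose phosphate synthase joins glucose 6-phosphate and UDP-glucose to trehalose 6-phosphate, trehalose phosphate phosphatase (TPP) removes the phosphate, and trehalase splits trehalose into glucose. Trehalose 6-phosphate follows the sucrose level of the cell and inhibits SnRK1, the kinase that turns on starvation programmes. TPS1 is the class I enzyme that makes most of the trehalose 6-phosphate in Arabidopsis, whereas TPS5 to TPS11 are class II proteins that carry a synthase-like and a phosphatase-like domain, with little or no catalytic activity shown for them. TPS8 to TPS11 are known as genes that sugar represses and starvation induces, and TPS5 as one that sugar induces.

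Total counts over named genes ranged from 17839925 to 24717357 per library. The summed level of 4 leaf mesophyll markers (RBCS1A, RCA, LHCB1.1 and LHCA1) lay between 17813 and 31191 CPM (counts scaled to library totals adjusted by TMM normalization), and that of 3 root markers was at most 0.401 CPM, with 1 of them at 0 in every library. Seed storage markers summed to at most 0.171 CPM, with 2 of 3 at 0 in every library. Flower markers (AP3, PI and AG) reached 3.53 CPM for a single gene, and their sums overlapped between all groups, from 1.56 to 8.28 CPM in WT-control, 1.03 to 2.44 in WT-drought, 1.09 to 7.81 in MtPHD6-control and 1.31 to 5.93 in MtPHD6-drought. Phloem companion cell markers summed to 198 to 239 CPM in WT-control, 222 to 230 in WT-drought, 249 to 262 in MtPHD6-control and 185 to 251 in MtPHD6-drought, and 3 guard cell markers to 46.3 to 69.6, 44.2 to 47.3, 45.4 to 56.8 and 37.2 to 50.2 CPM in the same order. Of these lists the guard cell channel gene KAT1 was called lower with drought in both genotypes and RCA, the rubisco activase gene, lower with drought in transgenic leaves, and no other marker was called in any comparison. With 1 library left out KAT1 lost its call in 5 of 6 fits in wild-type and 3 of 6 in transgenic leaves, and RCA lost its call in 3 of 6. The part of these lists in the TPS values was not tested. In RNA of whole leaves, fewer cells of a type and less RNA per cell cannot be told apart.

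The class I genes were told from the class II genes by their structure. In the TAIR10.1 annotation the coding sequence of TPS1 is split over 17 exons, as are those of TPS2, TPS3 and TPS4, whereas each of TPS5 to TPS11 has 3 coding exons. TPS2 and TPS3 had no count in any library and TPS4 had 0 to 6 counts per library, so TPS1 was the class I gene with counts enough for the test. No stretch of 50 bases was shared between the transcripts of any pair among the 8 genes, and the aligned coding bases of TPS8 and TPS9, the closest pair, were 81.0% identical. Identity was 72.0% between TPS9 and TPS10, 71.8% between TPS8 and TPS10, 70.5% between TPS5 and TPS6, 63.1% to 66.0% in the other class II pairs and 54.2% to 56.7% between TPS1 and the class II genes. TPS1 (chr1:29552340-29560912, - strand), TPS5 (chr4:9876172-9880386, + strand) and TPS6 (chr1:25496928-25500584, + strand) each overlap an annotated gene on the other strand (AT1G78570 and AT1G09827 with TPS1, AT4G17780 with TPS5, and AT1G68030 with TPS6), and no source used here states that reads were counted by strand, so their values may hold or lack reads from those overlaps. The same limit holds for RCA and, among genes named below, for TPPA, HXK1, DIN6, DIN10, SEN5, STP1 and BCAT2.

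To compare levels between genes, CPM was divided by the length of each gene's exons (RPKM, per kilobase). This length joins the exons of all annotated transcripts, from 2945 bases in TPS11 to 4361 in TPS10 and 5341 in TPS1. The order of the genes and their shares depend on it. In WT-control, mean CPM put TPS1 (48.3) above TPS6 (36.7) and TPS5 (30.9), and TPS10 (26.6) above TPS9 (21.7). TPS7 had the highest length-scaled mean in all 4 groups. In WT-control it stood at 39.7 ± 1.35 RPKM (SD, n = 3), above TPS8 (19.0 ± 1.37) and TPS11 (19.0 ± 2.00), whose libraries overlapped. TPS6 followed at 10.3 ± 0.371 RPKM, then TPS5 (9.07 ± 0.685) and TPS1 (9.04 ± 0.192), which overlapped, then TPS9 (7.29 ± 0.391) and TPS10 (6.10 ± 0.281). In WT-drought TPS5 was the lowest of the 8 (4.87 ± 0.567 RPKM), below TPS1 (8.50 ± 0.701), and TPS9, TPS10 and TPS6 overlapped as neighbours at 16.7 ± 1.43, 15.1 ± 1.27 and 15.0 ± 0.644 RPKM. In MtPHD6-control the libraries of TPS7 (54.6 ± 6.67 RPKM) and TPS8 (54.5 ± 9.97) overlapped, and in MtPHD6-drought TPS8 was again well under TPS7, at 24.6 ± 1.15 against 56.3 ± 3.42 RPKM.

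The summed level of the 8 genes was 120 ± 3.56 RPKM in WT-control, 226 ± 16.8 in WT-drought, 197 ± 23.6 in MtPHD6-control and 166 ± 6.24 in MtPHD6-drought (SD, n = 3). No library of WT-control, at 116 to 123 RPKM, reached those of the other groups. TPS8 to TPS11 together went from 51.4 ± 2.89 RPKM in WT-control to 133 ± 16.0 in WT-drought, 115 ± 17.4 in MtPHD6-control and 85.5 ± 5.35 in MtPHD6-drought. The share of the sum held by TPS1 was 7.57% ± 0.335 in WT-control and 3.80% ± 0.575, 4.29% ± 0.675 and 4.70% ± 0.705 in WT-drought, MtPHD6-control and MtPHD6-drought. TPS8 held 15.9% ± 0.738 in WT-control and 14.9% ± 0.331 in MtPHD6-drought, against 21.5% ± 3.79 in WT-drought and 27.5% ± 1.67 in MtPHD6-control.

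**Figure D1:**
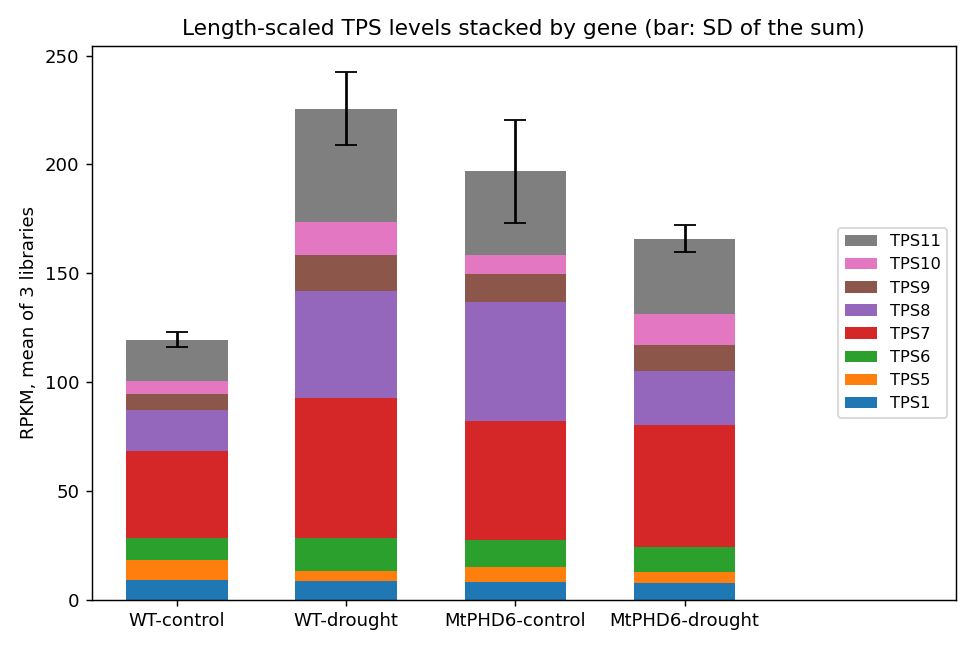
Mean length-scaled level (RPKM, y axis) of each of the 8 TPS genes, stacked, in the 4 groups of 3 libraries. The black bar is the SD of the summed level, which was 120 ± 3.56 RPKM in WT-control and 226 ± 16.8 RPKM in WT-drought, with TPS7 as the largest single share in WT-control (33.2%).

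Which TPS genes differed between transgenic and wild-type leaves with water present was read from MtPHD6-control vs. WT-control. TPS8, TPS11, TPS9, TPS10 and TPS7 were higher in the transgenic leaves and TPS5 was lower, with an edgeR quasi-likelihood adjusted p under 0.05 over all 19681 genes. In none of the 8 genes did a MtPHD6-control library fall within the range of WT-control, or the reverse. Over all genes tested, 4.26% were called higher, 0.722% lower, and 24.4% had groups that did not overlap. The median log2 fold change was 0.51 over the 8 genes and -0.02 over all genes. These calls entered the choice of the genes and nothing is read from their number.

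For the response to drought in wild-type leaves (WT-drought vs. WT-control), TPS11, TPS8, TPS10, TPS9, TPS7 and TPS6 rose and TPS5 fell, and TPS1 was not called. Over all genes 12.2% were called higher and 7.18% lower in this comparison. The groups did not overlap for 7 of the 8 genes, and for 37.6% of all genes. The median log2 fold change was 0.95 over the 8 genes and -0.01 over all genes.

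The response to drought in transgenic leaves (MtPHD6-drought vs. MtPHD6-control) had another form: TPS10 rose, TPS8 and TPS5 fell, and TPS1, TPS6, TPS7, TPS9 and TPS11 were not called. In this comparison 9.49% of all genes were called higher and 12.7% lower, and 41.2% had groups that did not overlap, against 3 of the 8 TPS genes. The median log2 fold change was -0.11 over the 8 genes and 0.02 over all genes.

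Under drought the transgenic leaves had less TPS8, TPS11, TPS9 and TPS6 transcript than the wild-type leaves (MtPHD6-drought vs. WT-drought), and none of the 8 genes was called higher. Of all genes 2.65% were called higher and 3.89% lower, and the groups did not overlap for 28.4%, against 5 of the 8 TPS genes. The median log2 fold change was -0.28 over the 8 genes and 0.01 over all genes. The 4 comparisons use each group in more than one contrast, so their values are set side by side and their calls are not independent.

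**Figure D2:**
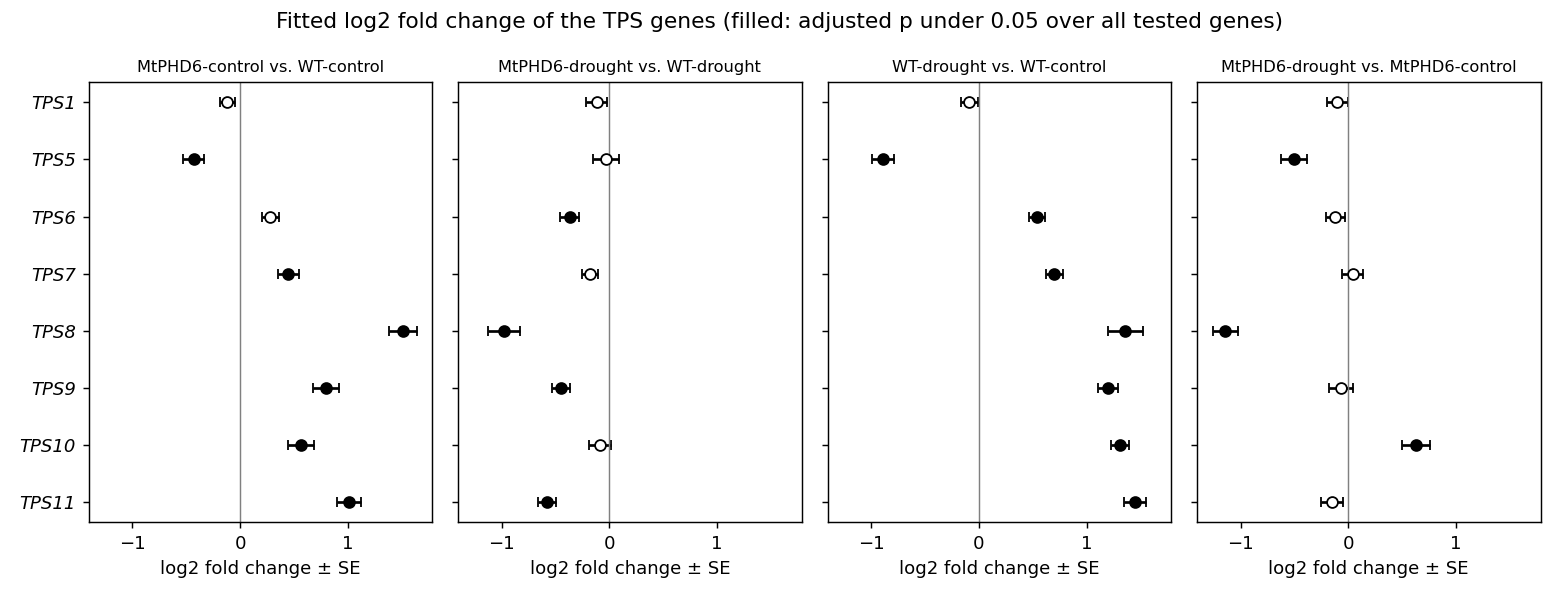
Fitted log2 fold change (x axis, with its standard error) of each TPS gene in the 4 comparisons, 3 libraries per group. Filled points have an adjusted p under 0.05 over all tested genes. TPS8 lies to the right in MtPHD6-control vs. WT-control (1.51) and to the left in MtPHD6-drought vs. MtPHD6-control (-1.14), and TPS1 is open in all 4.

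Among the class II genes TPS8 (chr1:26470795-26474833, - strand) was called in all 4 comparisons. Its levels were 69.0, 61.5 and 60.7 CPM in the WT-control libraries, 211, 146 and 135 CPM in WT-drought, 160, 166 and 221 CPM in MtPHD6-control and 80.2, 86.9 and 80.3 CPM in MtPHD6-drought. WT-drought and MtPHD6-control overlapped and lay above all libraries of the other groups. In watered leaves the transgene went with a log2 fold change of 1.51 ± 0.13 (SE, n = 3 per group), a 2.85-fold higher level, and under drought with one of -0.98 ± 0.15. Drought raised TPS8 in wild-type leaves (1.36 ± 0.16) and lowered it in transgenic leaves (-1.14 ± 0.12).

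The highest TPS8 value of WT-drought came from replicate 1 and that of MtPHD6-control from replicate 3. MtPHD6-control replicate 3 was the highest of its group for TPS6 to TPS11 and the lowest for TPS1 and TPS5. Without it the watered comparison gave log2 fold changes of 1.35 for TPS8, 0.91 for TPS11, 0.67 for TPS9, 0.45 for TPS10, 0.35 for TPS7 and -0.35 for TPS5, and the last 3 of these were no longer called. Without WT-drought replicate 1 the rise of TPS8 in wild-type leaves was 1.14 and its difference between genotypes under drought was -0.76, and both remained called.

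TPS9 (chr1:8432179-8435656, + strand), the closest relative of TPS8 in coding sequence, stood at 20.7, 21.4 and 22.9 CPM in WT-control, 53.8, 45.3 and 49.8 CPM in WT-drought, 32.7, 36.6 and 44.2 CPM in MtPHD6-control and 35.8, 37.8 and 34.5 CPM in MtPHD6-drought. WT-control was below and WT-drought above every library of the other groups, and both transgenic groups overlapped. It rose with drought in wild-type leaves (log2 fold change 1.20 ± 0.09) and was not called in transgenic leaves (-0.07 ± 0.11). It was higher in transgenic leaves with water (0.80 ± 0.12) and lower under drought (-0.45 ± 0.08), and the latter call was lost without WT-drought replicate 1 (-0.39) or 3 (-0.45).

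TPS11 (chr2:8108898-8112010, + strand) followed TPS9 in its order of groups. Its levels were 62.7, 53.4 and 51.8 CPM in WT-control, 165, 143 and 152 CPM in WT-drought, 103, 108 and 128 CPM in MtPHD6-control and 95.5, 110 and 101 CPM in MtPHD6-drought. All WT-drought libraries were above all others, and the transgenic groups overlapped. The log2 fold changes were 1.45 ± 0.10 with drought in wild-type leaves, -0.15 ± 0.10 with drought in transgenic leaves, 1.01 ± 0.11 for the transgene with water and -0.58 ± 0.08 for the transgene under drought.

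TPS10 (chr1:22176934-22181740, - strand) was the gene of the family that rose with drought in both genotypes. It was measured at 25.7, 28.0 and 26.1 CPM in WT-control and 62.0, 63.6 and 72.3 CPM in WT-drought. In MtPHD6-control it stood at 39.4, 33.5 and 45.9 CPM and in MtPHD6-drought at 53.4, 66.8 and 64.4 CPM. The drought groups of both genotypes overlapped and were above both watered groups. Its log2 fold change with drought was 1.31 ± 0.08 in wild-type and 0.63 ± 0.13 in transgenic leaves, its difference between genotypes was 0.57 ± 0.12 with water, and under drought it was -0.09 ± 0.10 and not called. The watered call was lost when any of 5 of the 6 libraries was left out, with log2 fold changes of 0.45 to 0.67 over the 6 fits.

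**Figure D3:**
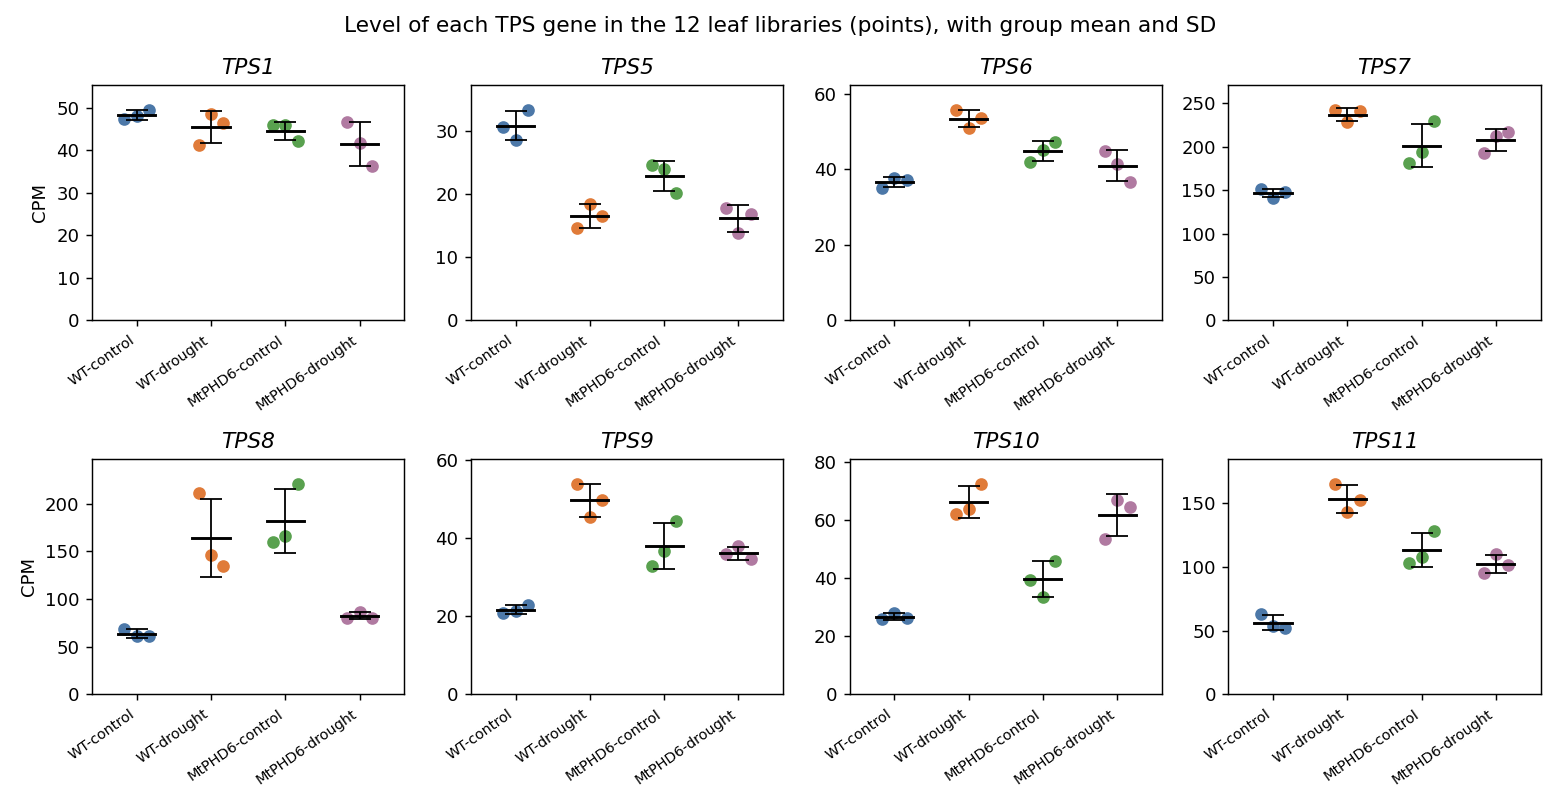
Level of each TPS gene in CPM (y axis, from 0) in the 12 libraries, by group. Points are libraries, the long line is the group mean and the bar its SD (n = 3). WT-drought is above WT-control in every library for TPS6 to TPS11, and TPS8 in MtPHD6-drought (80.2 to 86.9 CPM) is below all MtPHD6-control libraries (160 to 221 CPM).

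The 250 bases before the annotated gene starts are shown for TPS8, TPS9, TPS10 and TPS11, which rose most with drought in wild-type leaves (log2 fold changes of 1.20 to 1.45). TPS6 and TPS7 rose there too (0.54 and 0.70) and also responded differently in transgenic leaves, so this trait is not particular to the genes shown. Sequences were read from the TAIR10.1 genome of RefSeq, 5′ to 3′ on the strand of the gene, and capitals mark ACGT, the core of sites known for bZIP factors.
TPS8 (chr1:26474834-26475083, - strand): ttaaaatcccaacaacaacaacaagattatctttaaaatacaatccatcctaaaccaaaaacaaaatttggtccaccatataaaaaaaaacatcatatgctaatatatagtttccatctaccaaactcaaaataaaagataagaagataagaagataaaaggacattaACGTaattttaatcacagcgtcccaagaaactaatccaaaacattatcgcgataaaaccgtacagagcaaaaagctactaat
TPS9 (chr1:8431929-8432178, + strand): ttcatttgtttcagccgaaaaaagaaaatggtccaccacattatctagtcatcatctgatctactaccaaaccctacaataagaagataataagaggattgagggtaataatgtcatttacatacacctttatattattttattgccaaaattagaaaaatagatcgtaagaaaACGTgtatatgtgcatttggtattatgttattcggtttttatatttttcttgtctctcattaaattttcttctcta
TPS10 (chr1:22181741-22181990, - strand): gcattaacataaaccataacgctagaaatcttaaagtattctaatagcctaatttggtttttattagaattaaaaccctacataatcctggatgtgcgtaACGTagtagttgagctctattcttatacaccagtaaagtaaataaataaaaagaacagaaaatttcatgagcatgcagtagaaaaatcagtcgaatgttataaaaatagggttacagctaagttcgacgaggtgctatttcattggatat
TPS11 (chr2:8108648-8108897, + strand): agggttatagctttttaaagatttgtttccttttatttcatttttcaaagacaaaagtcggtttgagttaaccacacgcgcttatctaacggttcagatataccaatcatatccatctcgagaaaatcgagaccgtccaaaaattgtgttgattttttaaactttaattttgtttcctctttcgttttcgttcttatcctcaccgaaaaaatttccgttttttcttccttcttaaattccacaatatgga

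ACGT was searched on both strands, which read the same. It was found once in the windows of TPS8, TPS9 and TPS10, starting 82, 76 and 150 bases before the gene start, and not in those of TPS1, TPS5, TPS7 and TPS11. Of 27443 protein-coding genes, 44.1% held ACGT in a window of the same length. GTGGNG, letters known for Alfin1 of alfalfa and also searched on both strands, were matched once each in the windows of TPS1 and TPS9 and in 17.5% of genes. No other form of the Alfin1 site was searched, so a window without GTGGNG may still hold one. TATCCA was matched once each in TPS10 and TPS11 (13.6% of genes), ACCGAC or GCCGAC, letters known for drought-responsive DREB factors, once in TPS11 (7.1%), and ACTCAT, known for S1 bZIP factors, once in TPS5 (12.3%), all on both strands. The G-box CACGTG (6.5% of genes) and the abscisic acid response letters ACGTGTC or ACGTGGC (6.4%), which both overlap ACGT, and the W-box letters TTGACC or TTGACT (28.4%) were matched in none of the 4 windows shown. The longest run shared by 2 of these windows was ataagaagataa, 12 bases in TPS8 and TPS9. TPS8 and TPS9 also shared the 10 bases tggtccacca, starting 182 and 222 bases before their starts, and TPS9 and TPS10 shared aaaccctaca at 182 and 178 bases. These matches describe the letters of the windows and were not tested against the levels.

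TPS7 (chr1:1954674-1958866, + strand), the class II gene with the highest length-scaled level, stood at 151, 141 and 148 CPM in WT-control, 242, 228 and 241 CPM in WT-drought, 181, 194 and 229 CPM in MtPHD6-control and 193, 212 and 217 CPM in MtPHD6-drought. MtPHD6-control reached into the range of WT-drought with its replicate 3. TPS7 rose with drought in wild-type leaves (log2 fold change 0.70 ± 0.08) and was not called in transgenic leaves (0.04 ± 0.10). Its higher level in watered transgenic leaves (0.45 ± 0.10) lost its call whichever of the 6 libraries was left out, with values of 0.35 to 0.53, and under drought the difference was -0.18 ± 0.07 and not called.

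TPS6 (levels of 35.2, 37.7 and 37.2 CPM in WT-control and 55.7, 51.1 and 53.5 CPM in WT-drought) rose with drought in wild-type leaves by a log2 fold change of 0.54 ± 0.07. In MtPHD6-control it stood at 42.0, 45.1 and 47.3 CPM and in MtPHD6-drought at 44.9, 41.4 and 36.8 CPM. The transgenic groups overlapped (-0.12 ± 0.09, not called), and both lay below WT-drought. The difference between genotypes was 0.28 ± 0.08 with water, not called, and -0.37 ± 0.09 under drought, a call lost when any of 5 of the 6 libraries was left out.

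TPS5, the class II gene known as sugar-induced, was the gene of the family that fell with drought in wild-type leaves and was lower in watered transgenic leaves. Its levels were 30.7, 28.6 and 33.3 CPM in WT-control, 14.7, 18.5 and 16.5 CPM in WT-drought, 24.6, 24.0 and 20.2 CPM in MtPHD6-control and 17.8, 13.8 and 16.9 CPM in MtPHD6-drought. WT-control was highest, MtPHD6-control lay between, and the drought groups overlapped at the bottom. TPS5 fell with drought by 0.89 ± 0.10 on the log2 scale in wild-type leaves and by 0.50 ± 0.12 in transgenic leaves, the latter call being lost without MtPHD6-control replicate 1 or 2 or MtPHD6-drought replicate 2. Its lower level in watered transgenic leaves (-0.43 ± 0.10) lost its call in 5 of the 6 fits without a library, with values of -0.49 to -0.35, and under drought the genotypes differed by -0.03 ± 0.12, not called.

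TPS1 was not called in any comparison. The libraries stood at 47.3, 48.1 and 49.4 CPM in WT-control, 41.2, 48.4 and 46.5 CPM in WT-drought, 45.8, 45.8 and 42.1 CPM in MtPHD6-control and 46.7, 41.6 and 36.3 CPM in MtPHD6-drought. WT-control and MtPHD6-control did not overlap, and all other pairs that were compared did. The log2 fold changes lay between -0.12 ± 0.07 and -0.09 ± 0.08 in the 4 comparisons.

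How far the response to drought differed between the genotypes was fitted as an interaction over the 12 libraries, the log2 response in MtPHD6 leaves minus that in wild-type leaves. It was below 0 and called for 6 of the 8 genes and not called for TPS1 (-0.01 ± 0.13) and TPS5 (0.39 ± 0.17). The value was -2.51 ± 0.22 for TPS8, -1.60 ± 0.14 for TPS11, -1.27 ± 0.15 for TPS9, -0.67 ± 0.11 for TPS6, -0.67 ± 0.16 for TPS10 and -0.65 ± 0.12 for TPS7. Of all genes 1.38% had an interaction called above 0 and 5.60% one called below 0. The median was -0.67 over the 8 genes and 0.02 over all genes. The call for TPS10 was lost without WT-control, WT-drought or MtPHD6-control replicate 3 (-0.66, -0.60 and -0.55).

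With calls made instead where levels differed by more than 2-fold at p under 0.05 without adjustment, drought in wild-type leaves left TPS8 to TPS11 higher and no TPS gene lower, where 4.84% of all genes were higher and 1.40% lower. In the watered comparison TPS8 and TPS11 were higher and none was lower (3.06% and 0.417% of all genes). With drought in transgenic leaves TPS8 alone was lower and none was higher (2.33% lower and 3.27% higher), and for the transgene under drought none was called in either direction (0.752% lower and 0.960% higher). The interaction left TPS8, TPS9 and TPS11 below 0 and none above (3.68% and 0.950%).

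**Figure D4:**
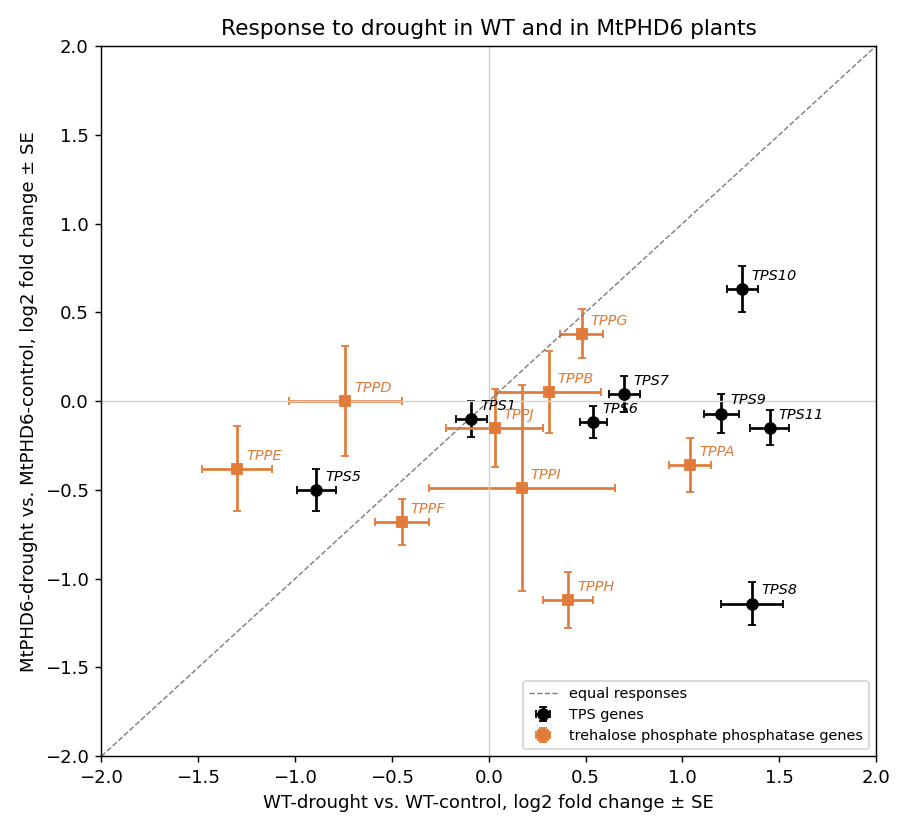
Log2 fold change with drought in wild-type leaves (x axis) and in MtPHD6 leaves (y axis) for the 8 TPS genes and the 9 TPP genes tested, with standard errors (3 libraries per group). The dashed line marks equal responses. TPS8 (1.36 and -1.14) and TPPH (0.41 and -1.12) lie far below it, and TPPG (0.48 and 0.38) lies near it.

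The shape of the levels over the 12 libraries was compared by Pearson's r of log2 CPM, as a description, since libraries share their treatment and depth. TPS9, TPS11 and TPS7 were most alike within the family (r = 0.978 for TPS9 and TPS11, 0.970 for TPS7 and TPS9, and 0.966 for TPS7 and TPS11). TPS8 and TPS9, the closest pair in coding sequence, had r = 0.795, and TPS8 and TPS10 had r = 0.409. TPS5 ran opposite to TPS10 (r = -0.957). Among 14697 genes that averaged 5 CPM or more, the pair most like TPS8 was AT4G16563 (r = 0.995) and AT1G61100 (0.994), that of TPS9 was BXL1 and AT1G02610 (0.987 each), and that of TPS10 was SPT1 (0.988) and PMT6 (0.985). TPS11 was closest to PMR6 and PLC1 (0.983 each), TPS7 to DGK3 (0.991) and AT2G48030 (0.985), TPS6 to TPPA (0.980) and AT1G03457 (0.968), TPS5 to GH9C2 (0.968) and KT2/3 (0.962), and TPS1 to SUVR5 (0.936) and AT5G26670 (0.933).

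Downstream of the synthases, 9 of the 10 TPP genes were tested, TPPC having at most 2 counts in a library. The TPP list and the lists below were also chosen with earlier results of these data known, so their values are a description. The median log2 fold change over the 9 was 0.13 for the transgene with water, 0.17 and -0.36 for drought in wild-type and transgenic leaves and -0.05 for the transgene under drought. Medians over all genes lay between -0.02 and 0.02. Of all genes, 4.26% were called higher and 0.722% lower with water, and 12.2% and 7.18% with drought in wild-type leaves. The shares were 9.49% and 12.7% with drought in transgenic leaves and 2.65% and 3.89% for the transgene under drought. With water, TPPA, TPPG and TPPH were higher in transgenic leaves, with log2 fold changes of 0.66 ± 0.13 (edgeR adjusted p = 0.0222), 0.62 ± 0.13 (adjusted p = 0.0352) and 0.82 ± 0.14 (adjusted p = 0.0134). With drought in wild-type leaves TPPA rose (1.04 ± 0.11, adjusted p = 0.000368), as did TPPG (0.48 ± 0.11, adjusted p = 0.0204), while TPPE fell (-1.30 ± 0.18, adjusted p = 0.00149). With drought in transgenic leaves TPPH fell (-1.12 ± 0.16, adjusted p = 0.00362), as did TPPF (-0.68 ± 0.13, adjusted p = 0.00969), and no TPP gene rose. Under drought the transgenic leaves had less TPPA (-0.73 ± 0.13, adjusted p = 0.0162) and TPPH (-0.70 ± 0.16, adjusted p = 0.0363) and more TPPG (0.53 ± 0.13, adjusted p = 0.043). TPPB, TPPD, TPPI and TPPJ passed the threshold in none of the 4 comparisons, with adjusted p-values of 0.11 to 0.997. The calls of TPPA and TPPE with drought in wild-type leaves and of TPPH and TPPF with drought in transgenic leaves held with any 1 library left out. In the watered comparison TPPG lost its call in 5 of 6 such fits and TPPA in 4, and TPPH lost it without MtPHD6-control replicate 3. For the transgene under drought TPPG and TPPH lost theirs in 5 of 6 fits and TPPA in 2 (without WT-drought replicate 1 or MtPHD6-drought replicate 2), and TPPG lost its call with drought in wild-type leaves without WT-drought replicate 1 or 2.

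TPPA was measured at 15.9, 16.6 and 18.8 CPM in WT-control, 40.2, 32.8 and 32.4 CPM in WT-drought, 22.7, 28.1 and 30.4 CPM in MtPHD6-control and 23.8, 22.0 and 17.4 CPM in MtPHD6-drought. WT-drought was above all other libraries, and MtPHD6-drought overlapped both watered groups. TPPH stood at 6.02, 7.15 and 7.63 CPM in WT-control, 10.0, 8.85 and 8.87 CPM in WT-drought, 10.8, 12.7 and 13.4 CPM in MtPHD6-control and 6.79, 4.55 and 5.64 CPM in MtPHD6-drought. MtPHD6-control was the highest group for TPPH. The interaction was -1.41 ± 0.19 for TPPA (adjusted p = 0.000553) and -1.53 ± 0.21 for TPPH (adjusted p = 0.000558), and no other TPP gene passed the threshold for it. Trehalase (TRE1) rose with drought in wild-type leaves (0.68 ± 0.20, adjusted p = 0.0475) and in transgenic leaves had the same value without passing the threshold (0.68 ± 0.21, adjusted p = 0.0505), with an interaction of 0.00 ± 0.31 (adjusted p = 0.999). The wild-type call of TRE1 was lost in 5 of the 6 fits without a library, whereas the interactions of TPPA and TPPH held in all 12.

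Of the SnRK1 subunits and the kinases that activate SnRK1, 9 of 10 were tested, KIN12 having no count in any library. None passed the threshold for the transgene in either water condition or for drought in transgenic leaves. Of all genes 4.26% were called higher and 0.722% lower for the transgene with water, and 2.65% and 3.89% under drought. The shares for drought in transgenic leaves were 9.49% and 12.7%. With drought in wild-type leaves AKINBETA1, a regulatory beta subunit, rose (log2 fold change 1.02 ± 0.11, adjusted p = 0.000489), as did KING1 (0.51 ± 0.06, adjusted p = 0.00082) and the catalytic subunit KIN11 (0.22 ± 0.07, adjusted p = 0.0469), and AKINBETA2 fell (-0.29 ± 0.08, adjusted p = 0.0331). The median over the 9 genes was 0.06, against -0.01 over all genes, of which 12.2% were called higher and 7.18% lower. The interaction passed the threshold for AKINBETA1 (-0.71 ± 0.17, adjusted p = 0.024) and KING1 (-0.38 ± 0.09, adjusted p = 0.0234). Among all genes an interaction was called below 0 for 5.60%. Without 1 library the wild-type drought calls of AKINBETA1 and KING1 held in all 6 fits, that of KIN11 was lost in 6 and that of AKINBETA2 in 5, and the interactions were lost in 4 (AKINBETA1) and 6 (KING1) of 12.

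The bZIP factors of the C and S1 groups act with SnRK1 in starvation responses. The list held 6 of them (bZIP1, bZIP2, bZIP11, bZIP44, bZIP53 and bZIP63), and other genes of these groups were not listed. Of the 6, bZIP53 and bZIP63 were higher in watered transgenic leaves (1.03 ± 0.08, adjusted p = 0.000722, and 0.74 ± 0.12, adjusted p = 0.0118) and bZIP11 was lower (-0.42 ± 0.09, adjusted p = 0.0393). With drought 3 rose in wild-type leaves, led by bZIP63 and bZIP1 (1.30 ± 0.09 and 0.55 ± 0.10, adjusted p = 6.4e-05 and 0.00613), while bZIP2 and bZIP11 fell (-0.41 ± 0.08 and -0.40 ± 0.10, adjusted p = 0.0103 and 0.0205), and in transgenic leaves bZIP53, bZIP1 and bZIP11 fell (0.50-fold, 0.71-fold and 0.78-fold of the watered level, adjusted p = 0.000219, 0.0284 and 0.0215). Under drought bZIP1 was lower in transgenic than in wild-type leaves (-0.52 ± 0.11, adjusted p = 0.0257), a call lost in 4 of 6 fits without a library. The interaction was called below 0 for bZIP53, bZIP1 and bZIP63 (-1.47 ± 0.15, -1.06 ± 0.16 and -1.22 ± 0.19, adjusted p = 7.4e-05, 0.00112 and 0.00107) and held in all 12 such fits. Of all genes 5.60% had an interaction called below 0. With drought 12.2% of all genes were called higher and 7.18% lower in wild-type leaves, and 12.7% lower in transgenic leaves. With water 4.26% were called higher and 0.722% lower in transgenic leaves. Of the genes that supply the substrates, UGP2 and HXK2 fell with drought in both genotypes, HXK1 fell in wild-type and UGP1 in transgenic leaves, by log2 values of -0.60 to -0.32. The calls of bZIP53 and bZIP63 in watered transgenic leaves, of bZIP63 and bZIP1 with drought in wild-type leaves and of bZIP53 with drought in transgenic leaves held in all fits without a library, and the other bZIP calls of those 3 comparisons were each lost in 1 to 5 of 6. Of the substrate genes HXK2 held its call in wild-type leaves, and the other calls were each lost in 2 or 3 of 6.

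Genes known to be repressed by sugar were set beside TPS8 to TPS11. Of 9 such genes, 7 were higher and none lower in watered transgenic leaves (median 0.94), where TPS8, TPS11, TPS9 and TPS10 had values of 1.51, 1.01, 0.80 and 0.57. SEN5, DIN10, DRM1 and STP1 had the smallest p-values there (1.61 ± 0.16, 2.18 ± 0.21, 0.82 ± 0.08 and 1.65 ± 0.20, adjusted p = 0.00137 to 0.00313). With drought in wild-type leaves 8 rose and none fell (median 1.44), led by STP1, DIN10, SEN5 and DRM1 (2.35 ± 0.12, 2.80 ± 0.15, 2.25 ± 0.13 and 1.13 ± 0.09, adjusted p = 3.0e-05 to 0.000108). With drought in transgenic leaves 1 rose (DRM2, 0.37 ± 0.09, adjusted p = 0.0201) and 1 fell (BT2, -1.29 ± 0.08, adjusted p = 8.0e-05), with a median of 0.08. Under drought 4 were lower in transgenic than in wild-type leaves (DIN10, STP1, BT2 and SEN5, by log2 values of -0.84 to -0.61, adjusted p = 0.00836 to 0.0286) and 1 was higher (BCAT2, 0.59 ± 0.15, adjusted p = 0.0471), with a median of -0.51, and without 1 library SEN5 and BCAT2 lost these calls in 4 and 5 of 6 fits. The interaction was called below 0 for 6 of the 9 (median -1.47), among them DIN10, a raffinose synthase-like gene (-3.03 ± 0.26, adjusted p = 3.7e-05), and STP1, a monosaccharide transporter (-2.27 ± 0.24, adjusted p = 7.6e-05). Without 1 library the drought calls of all 8 genes in wild-type leaves and the 6 interactions held, as did the drought call of BT2 in transgenic leaves, whereas DRM2 lost its call in 3 of 6 fits in transgenic leaves and in 5 of 6 in the watered comparison. The watered call of DIN6 was lost without WT-control replicate 1 or 3 and that of BT2 without MtPHD6-control replicate 1. Of all genes, 4.26% were called higher and 0.722% lower with water, and 12.2% and 7.18% with drought in wild-type leaves. The shares were 9.49% and 12.7% with drought in transgenic leaves and 2.65% and 3.89% for the transgene under drought. An interaction was called below 0 for 5.60%, and medians over all genes lay between -0.02 and 0.02. The lists were chosen with earlier results of these data known. Their counts are a description, and no test of a list was made.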

How the data were processed

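Raw gene counts of 12 leaf libraries were deposited by the authors as 1 table (HISAT2 2.0.5 and featureCounts 1.5.0-p3 per the submitters' notes, which also name DESeq2 1.16.1; strand and annotation were not given in the sources used here). Gene positions in the study's supplement equal TAIR10.1 for 1044 of 1045 genes. Rows without a gene name, 2021 of 38082, held 0.387% to 0.463% of counts and were left out. Members and gene lists were chosen with earlier results of these data known. Genes with a minimum count of 10 (filterByExpr) were tested with edgeR 4.0.16 (R 4.3.3; TMM, quasi-likelihood F-test, Benjamini-Hochberg over 19681 genes, threshold 0.05), each comparison on its 6 libraries and the interaction on all 12. The script was tested on simulated data. A member's upstream sequence is not reported here. CPM used TMM-scaled totals, and RPKM the exon length in TAIR10.1. Named genes were all TPS, TPP and trehalase genes, of other lists those under 0.05 (at most 4 per comparison by p), and the 2 most similar genes per member. KAT1, RCA, BCAT2 under drought, and DIN6, BT2 and DRM2 with water were named after their values were seen. The library pairs within a group differed by 4.66 to 27.16 chi-square units per degree of freedom, so none was counted as a duplicate. The labels state no pairing of libraries, and the main fits used none. Deviations of same-numbered libraries from their group means had r = 0.348, 0.148 and 0.142 for drought in wild-type leaves. Libraries of different number had r of -0.232 to 0.097 there. In the other comparisons at least 1 of the 3 same-numbered values was below 0, and with water different numbers reached r = 0.4. Replicate number was used as a block only in an alternative fit.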

Additional observations from a re-analysis of the deposited data

Results flagged for a closer look

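The response to drought differed between MtPHD6 and wild-type leaves, by the edgeR test of the interaction over all 12 libraries, for 6 TPS genes and 2 TPP genes. The log2 differences, MtPHD6 minus wild type, were -2.51 for TPS8, -1.60 for TPS11, -1.27 for TPS9, -0.67 for TPS6, -0.67 for TPS10, -0.65 for TPS7, -1.41 for TPPA and -1.53 for TPPH. The TPS genes and the TPP list were both chosen with earlier results of these data known, so these differences are a description. Of all genes 5.60% had an interaction called below 0. Library by library, TPS8 rose in WT-drought above every WT-control library and in MtPHD6-drought stood below every MtPHD6-control library.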

How the results depend on the processing

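All member calls for drought in wild-type leaves and all calls of TPS8 and TPS11 kept their side of the threshold under these alternatives (DESeq2 size factors, upper-quartile scaling, DESeq2 1.42.0, no filter, a minimum of 1 CPM in every library, one fit to the 12 libraries, the replicate block, and each library left out). Of 560 alternative member values, 511 kept direction and call, 34 lost and 1 gained a call and 14 changed sign. The 14 were of uncalled values near 0. Without a library, for genotype under drought, TPS5 ran from -0.11 to 0.07 (0.06 in another fit) and TPS10 from -0.15 to 0.0012, and for drought in MtPHD6 TPS7 ran from -0.02 to 0.15 and TPS9 from -0.16 to 0.06. The others were for the interaction of TPS1 0.0007 with DESeq2 size factors, 0.07 with upper-quartile scaling, 0.0012 with DESeq2 and 0.01 to 0.08 without a library, where the whole range was -0.11 to 0.08.

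For the watered comparison the replicate block gave 3 TPS genes higher and 0 lower, in place of 5 and 1, and it removed the call of TPS6 under drought. It changed no other member call, and so none for drought in wild-type leaves. Leaving out 1 library gave 3 to 4 TPS genes higher and 0 to 1 lower in the watered comparison, 2 to 4 lower for genotype under drought, and 1 to 2 lower for drought in MtPHD6. For TPP genes it gave 0 to 2 higher (watered), 0 to 2 higher and 0 to 2 lower (genotype under drought), and 1 to 2 higher and 1 to 2 lower (drought in wild type). Upper-quartile scaling and all 12 libraries together each called 2 TPP genes lower with drought in wild type, in place of 1. At a fold change over 2 with an unadjusted p under 0.05, which needs a larger change by construction, TPS genes called were 2 higher and 0 lower (watered), 0 lower (genotype under drought), 4 higher and 0 lower (drought in wild type), 0 higher and 1 lower (drought in MtPHD6) and 3 lower (interaction). TPP genes called were then 0 higher (watered), 0 higher and 0 lower (genotype under drought), 1 higher (drought in wild type) and 1 lower (drought in MtPHD6). By this rule 3.06% of all genes were higher and 0.417% lower (watered), and 0.960% and 0.752% for genotype under drought. The shares were 4.84% and 1.40% for drought in wild type and 3.27% and 2.33% for drought in MtPHD6. For the interaction 3.68% were lower. The cause of the other changes was not tested. With 3 libraries per group, calls near the threshold rest on single libraries, and TPS4, TPPC and TPPI lie near the limit of this depth.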
